A study of Mus musculus with 12 samples.

Results

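The genes described here encode 4 systems of guidance cues and receptors, namely the ephrins with the Eph receptors, the semaphorins with the plexins and neuropilins, the Slits with the Robos, and the netrins with their receptors. They were chosen by gene symbol and make up 72 of the 35976 symbols in the count tables. There were 14 Eph receptors, 8 ephrins, 7 class 3 semaphorins, 13 class 4 to 7 semaphorins, 10 plexin entries, 2 neuropilins, 3 Slits, 3 Robos, 6 netrins and 6 netrin receptors. One of the plexin entries was Plxna4os1, an antisense RNA of Plxna4. The RNA came from whole testes of outbred Swiss (RjOrl) mouse embryos at E15.5. In F1, pregnant females were gavaged with thiacloprid (*thia*), a neonicotinoid insecticide, at 6 mg/kg/day in olive oil, or with oil alone, from E6.5 to E15.5, and their embryos were collected. F3 embryos descended from such F1 males through the male line, with untreated unrelated females in each cross, so that F3 controls carried control descent and F3 *thia* embryos an ancestral exposure only. Each of the 4 groups (F1 control, F1 *thia*, F3 control and F3 *thia*) had 3 libraries, each from the testes of 3 pooled embryos. The p-values therefore measure the spread between pools, and in whole testis fewer cells of a type and less RNA per cell cannot be told apart.

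These proteins were first studied as signals that attract or repel growing axons. Ephrins are held at the cell surface and bind Eph receptor tyrosine kinases on neighbouring cells. Class 3 semaphorins are secreted and act mostly through neuropilins paired with plexins, while the semaphorins of classes 4 to 7 are membrane-bound and mostly bind plexins directly. Slits bind Robo receptors, and netrins such as Ntn1 bind Dcc, Neo1 and the Unc5 receptors. Outside the nervous system the same proteins are used in vessel growth, epithelial sorting and cell migration, and the fetal gonad contains vessels, cords and migrating cells in which several of them are known to be expressed.

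Library totals were between 25081647 and 62786622 counts in F1 and between 35216128 and 68996146 in F3. Markers of germ cells, Sertoli cells and fetal Leydig cells were found in every library, and no gene of the 12 marker lists was at 0 in all libraries, although Wnt9b stayed under 1 CPM (counts scaled to the library total, with TMM factors over the 12 libraries). F3 *thia* replicate 2 stood apart from the other libraries of its group, with a chi-square per degree of freedom of 90.7 and 101 against them, where the other pairs of replicates in the series gave 17.3 to 42.2. It also had the highest sum of the 6 erythroid markers, 78310 CPM against 41250 and 46880 in the other F3 *thia* libraries and 59110 to 63010 in F3 controls. In F1 this sum was 5005 to 17290 CPM. F1 *thia* replicate 2 had the highest sum of the 7 skeletal muscle markers, 569.9 CPM, where the other F1 libraries had 39.92 to 102.3. The number of members called in F3 and the fold changes of the members called without F3 *thia* replicate 2 are given with and without it.

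The promoters of the members were described first. RefSeq entries on GRCm38.p6 were found for 61 of the 72 members, and the 250 bases before the annotated start were read. Their median GC content was 64.8%, where the median over 27025 promoters of the same length was 52%, and their median number of CpG dinucleotides was 16, where all promoters had 6. The GC box GGGCGG, searched on both strands, was present in 45 of the 61 promoters (73.8%) and in 32.9% of all promoters. The TATA box TATAAA was present in 2 (3.28%, all promoters 13%), and AAGGTCA, the letters of a nuclear receptor half-site, in 4 (6.56%, all promoters 4.05%). The 3 promoters below belong to the members with the smallest p in F3, with letters of these 3 motifs in capitals, and overlapping matches counted separately. Epha3 is at chr16:63864176-63864425 on the minus strand and held 16 CpG and none of the motifs. Sema5a is at chr15:32244563-32244812 on the plus strand and held 17 CpG, 5 GC boxes and 1 AAGGTCA. Nrp2 is at chr1:62703067-62703316 on the plus strand and held 32 CpG and 5 GC boxes.
Epha3: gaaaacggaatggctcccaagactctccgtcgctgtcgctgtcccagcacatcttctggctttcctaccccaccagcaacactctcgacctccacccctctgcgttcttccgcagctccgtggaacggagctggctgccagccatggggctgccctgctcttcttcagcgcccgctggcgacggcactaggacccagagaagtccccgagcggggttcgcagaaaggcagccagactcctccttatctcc
Sema5a: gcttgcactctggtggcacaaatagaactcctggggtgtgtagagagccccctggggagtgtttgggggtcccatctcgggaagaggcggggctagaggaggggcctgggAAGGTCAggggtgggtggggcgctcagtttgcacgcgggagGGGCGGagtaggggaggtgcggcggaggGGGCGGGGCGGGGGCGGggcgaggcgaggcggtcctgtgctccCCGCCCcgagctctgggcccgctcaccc
Nrp2: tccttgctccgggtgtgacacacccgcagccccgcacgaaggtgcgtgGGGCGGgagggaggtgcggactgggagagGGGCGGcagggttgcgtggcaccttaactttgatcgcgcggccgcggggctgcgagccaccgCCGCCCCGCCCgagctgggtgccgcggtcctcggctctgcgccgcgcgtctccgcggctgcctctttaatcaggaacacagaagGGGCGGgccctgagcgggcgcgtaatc

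Levels were then compared between genes per length, as mean CPM per kb of exon over the 12 libraries. The highest member was the ephrin Efnb1 at 52.8 CPM per kb, followed by Plxnb2, a plexin that binds class 4 semaphorins, at 37.1. Ephb4, the receptor of Efnb2, was the highest Eph receptor at 27.8, and Neo1, a receptor for netrins and for the repulsive guidance molecules, was the highest netrin receptor at 25.3. Among the ligands, Sema7a, a lipid-anchored semaphorin that binds Plxnc1, had 23.2, the secreted Sema3c had 16.8 and Ntn3 had 14.6 CPM per kb. The next level in each family was that of Ephb6 (9.31), Efna2 (18.2), Sema3d (10.6), Sema6c (13.1), Plxnd1 (14.8), Ntng2 (2.26) and Unc5b (6.18). Of the Slits, Slit3 (7.98) and Slit2 (3.57) were well above Slit1 (0.394), and of the Robos, Robo2 (6.89) and Robo1 (2.32) were well above Robo3 (0.0339). The order of Slit3 and Slit2 rests on their exonic lengths, 6067 and 25433 bases, since in CPM they had 48.4 and 90.8. Nrp1 had 4.92 and Nrp2 2.04 CPM per kb. Dcc, a receptor of Ntn1, had 0.223 and Epha5 had 0.0565 CPM per kb. Every member had counts in all 12 libraries, with the lowest count at 1 for Plxna4os1 and at 3 for both Robo3 and Ntn5. Plxna4os1, at 0.0266 to 0.284 CPM, was the 1 member left out of the edgeR tests by the main filter on low counts, so that 71 members were tested there.

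**Figure D1:**
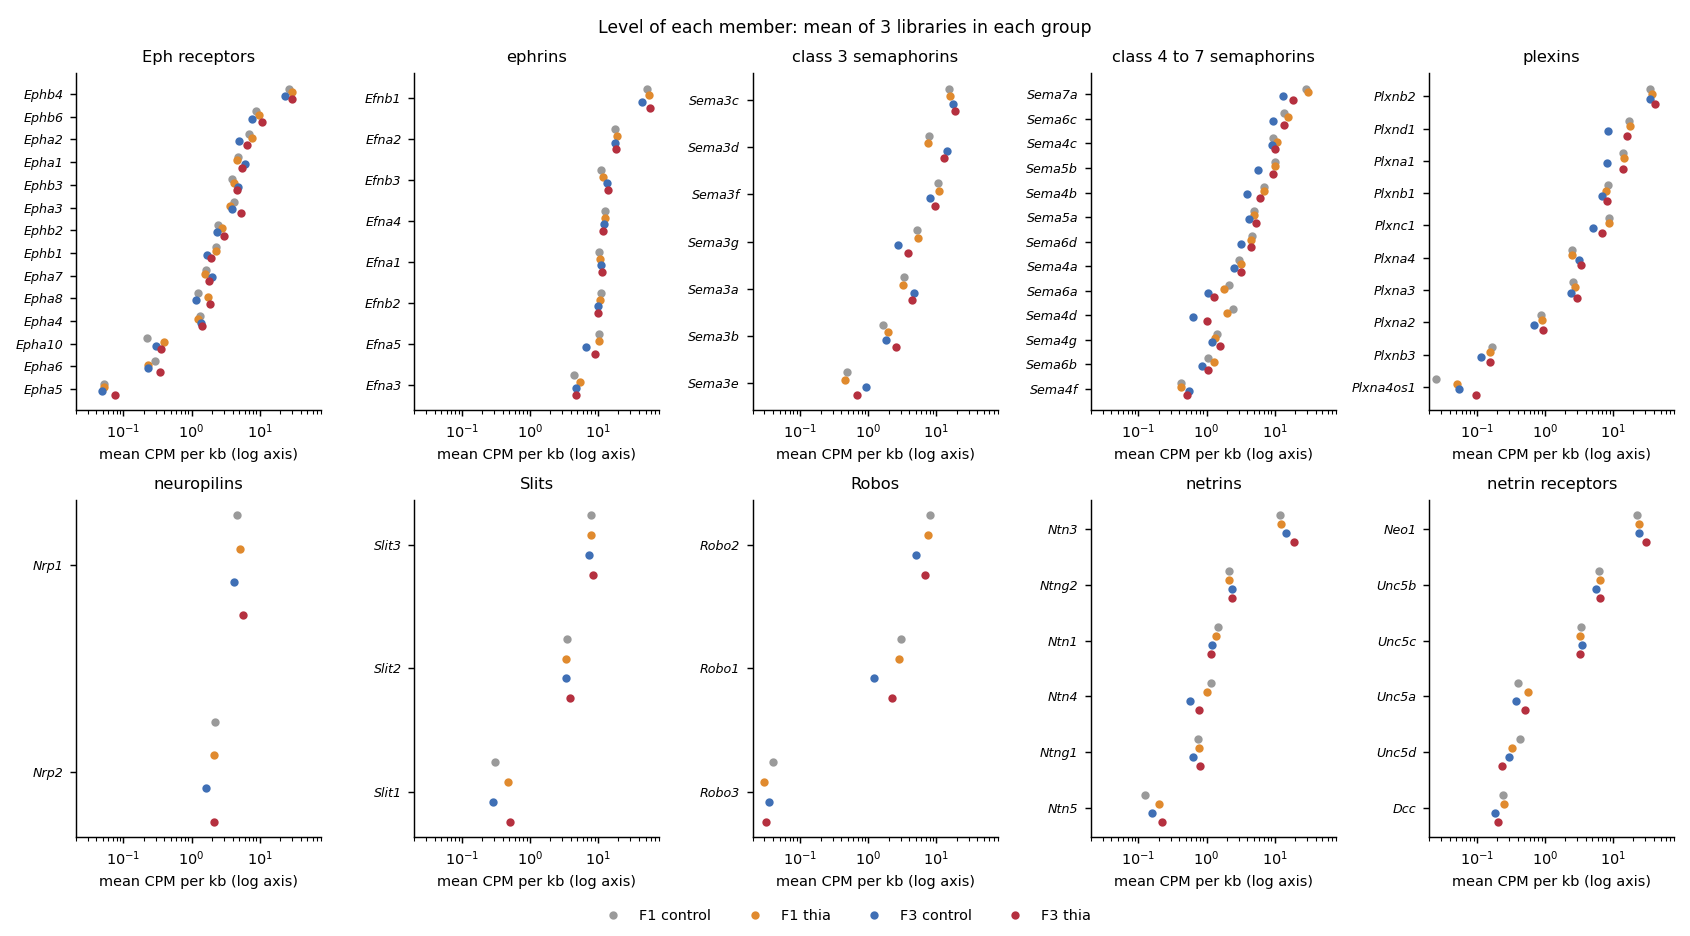
Mean level of each of the 72 members in CPM per kb of exon (log axis), by family, with 1 point for each of the 4 groups (mean of 3 libraries). Efnb1, Plxnb2, Ephb4, Neo1 and Sema7a lie at the right of their panels, and the F3 control point (blue) lies left of the other 3 for Plxnd1, Plxna1, Sema4b and Robo1.

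In F1, where the embryos themselves were exposed, no member passed the threshold used for this generation in edgeR, and DESeq2 called 1, Epha10. By the edgeR quasi-likelihood test, 0 of 71 members were called higher and 0 lower at an adjusted p under 0.15, where 0.00523% of the 19137 genes tested were called higher and 0.00523% lower. At an unadjusted p under 0.05 there were 6 members higher (8.45%, all genes 4.63%) and 2 lower (2.82%, all genes 4.13%). DESeq2 called 1 member higher and 0 lower, where it called 0.488% of genes higher and 0.525% lower. All 3 *thia* libraries lay above all 3 controls for 8 members (11.3%, all genes 6.55%) and below them for 2 (2.82%, all genes 8.45%). The median log2 fold change of the members was 0.036 and that of all genes was 0.009.

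The members with the smallest p in F1 were mostly genes of low level. Epha10, an Eph receptor without kinase activity, had 1.57, 1.59 and 1.67 CPM in controls and 3.41, 2.43 and 2.77 CPM in *thia* libraries. These groups did not overlap, and the log2 fold change was 0.85 ± 0.21 (SE, edgeR quasi-likelihood adjusted p = 0.446, DESeq2 adjusted p = 0.102). Epha8, another receptor of A ephrins, had 4.84, 6.84 and 5.63 CPM in controls and 8.07, 9.09 and 7.68 CPM with *thia*. Its groups did not overlap either, with a log2 fold change of 0.53 ± 0.17 (edgeR adjusted p = 0.507). The other members among the 10 smallest p values that were higher were Slit1 (0.61 on the log2 scale), the netrin receptor Unc5a (0.46), Efna3 (0.31), the secreted Sema3b (0.27), Epha2 (0.19) and the membrane-bound Sema6c (0.19). Unc5d (-0.39) and Sema4d (-0.28), a ligand of Plxnb1, were lower. None of these 10 passed the threshold in edgeR when any 1 library was left out, with adjusted p values of at least 0.353. Ntn5, a netrin, had 0.29, 0.426 and 0.111 CPM in F1 controls and 0.318, 0.421 and 0.593 CPM in F1 *thia*, and these ranges overlapped.

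In F3, the guidance genes lay to the *thia* side of control more often than genes at large, although edgeR called none of them. Of 71 members, 57 had a log2 fold change above 0 (80.3%, all genes 50.6%), with a median of 0.327 where that of all genes was 0.004. The edgeR quasi-likelihood test called 0 members higher and 0 lower at an adjusted p under 0.1, as it did for all 18539 genes tested (0% higher and 0% lower, smallest adjusted p 0.101), and the smallest adjusted p of a member was 0.105. At an unadjusted p under 0.05 there were 32 members higher (45.1%, all genes 11%) and 1 lower (1.41%, all genes 10%). DESeq2 called 25 of the 67 members to which it gave an adjusted p higher (37.3%, all genes 9.17%) and 0 lower (all genes 5.7%), and each of these 25 was among the members at an unadjusted p under 0.05 in edgeR. All *thia* libraries lay above all controls for 28 members (39.4%, all genes 13.4%) and below them for 1 (1.41%, all genes 13.9%).

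The number called in F3 changed with the library left out, the tool and the fit. Without F3 *thia* replicate 2, edgeR called 14 members higher (all genes 4.23%) and 1 lower (all genes 2.59%), the latter being the secreted Sema3d with a log2 fold change of -0.36 (adjusted p = 0.0951). The higher ones included Plxna1 at 0.96 without that library (edgeR adjusted p = 0.0583) and 0.78 with it, Plxnd1 at 1.10 (adjusted p = 0.0682) and 0.93, Robo1 at 1.06 (adjusted p = 0.0691) and 0.86, and Sema4d at 0.87 (adjusted p = 0.0753) and 0.69. Sema5b was at 0.92 without it and 0.72 with it, Sema7a at 0.73 and 0.49, Sema4b at 0.71 and 0.63, Sema6c at 0.68 and 0.54, Ephb6 at 0.58 and 0.49, Epha2 at 0.57 and 0.41, Robo2 at 0.49 and 0.42 and Sema5a at 0.43 and 0.37. Nrp2 and Epha3 moved little, from 0.41 to 0.40 in both. With all 12 libraries in one fit, edgeR called 22 members higher (31%, all genes 5.87%) and 0 lower (all genes 3.99%), and all 22 were among the 25 of DESeq2. At an unadjusted p under 0.05, the 33 members became 19 without F3 control replicate 1 and 18 without F3 *thia* replicate 3. The median over the members ranged from 0.258 to 0.345 as each library was left out in turn.

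**Figure D2:**
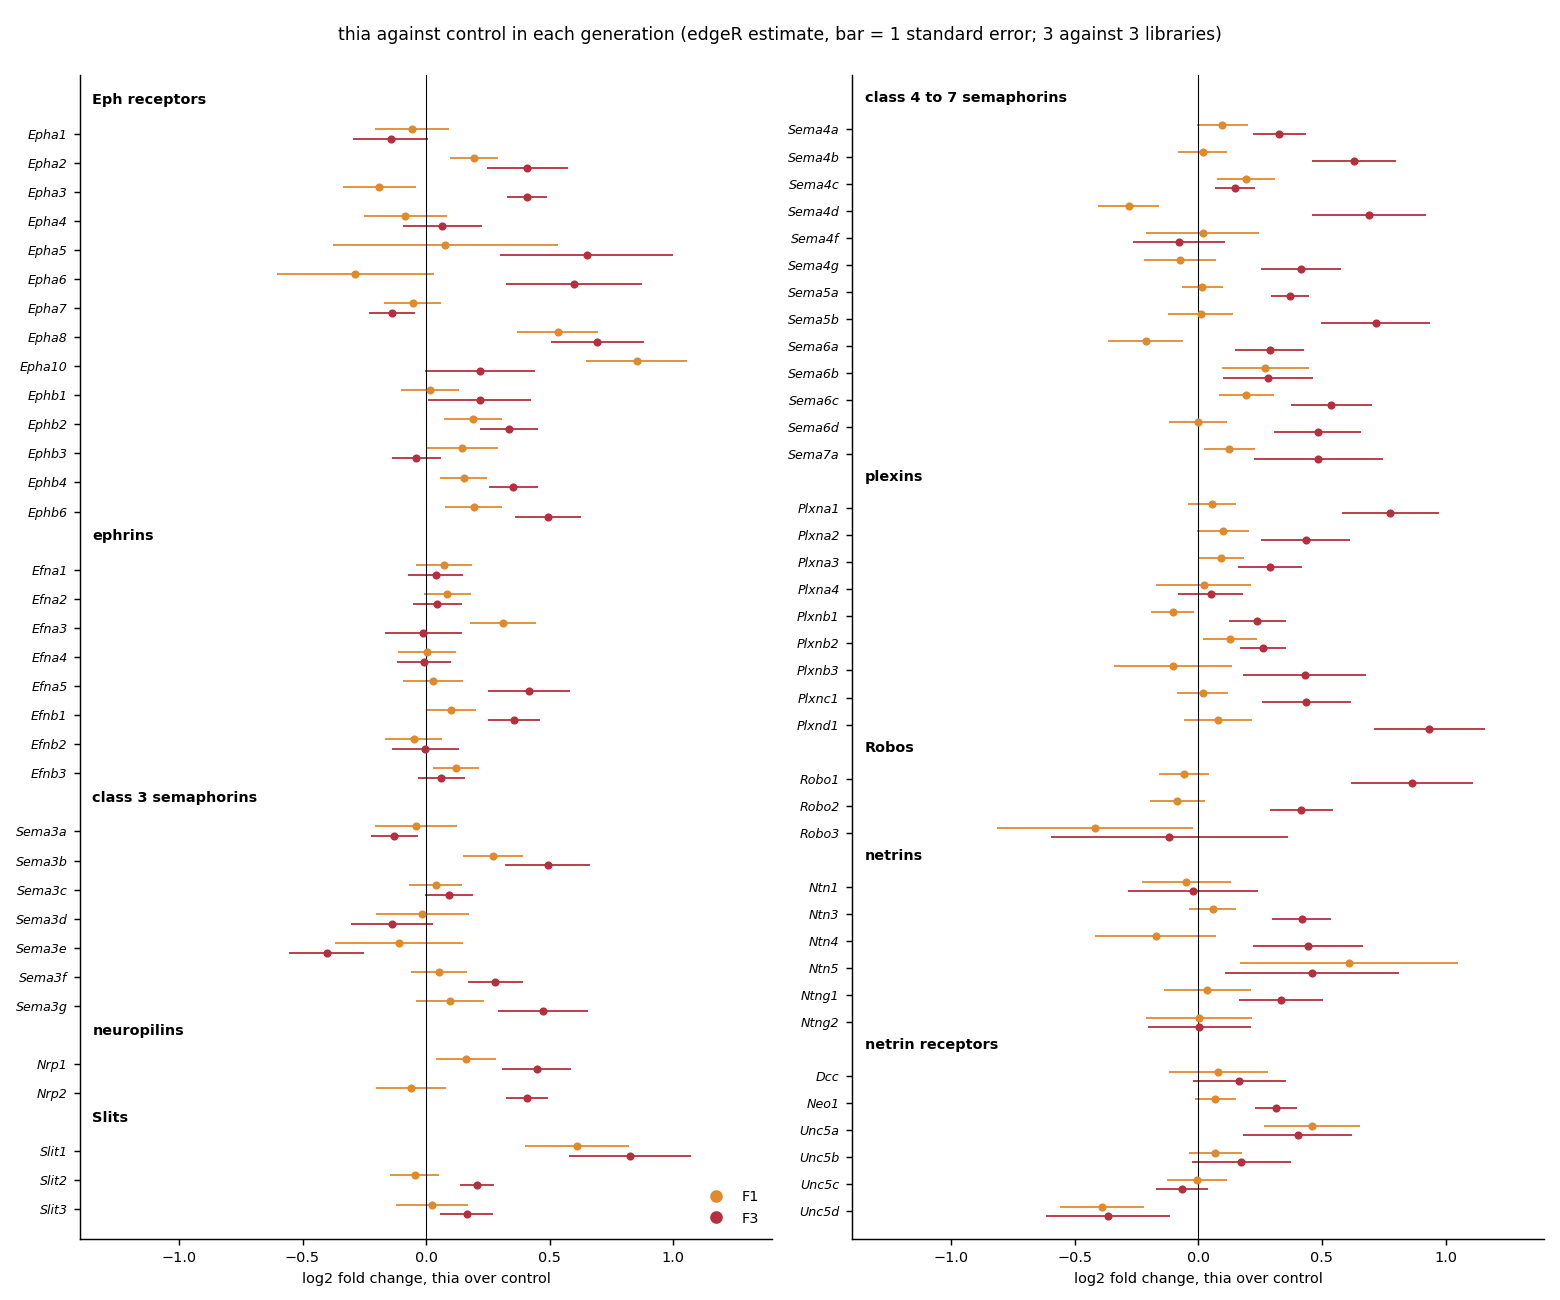
Log2 fold change of *thia* over control for the 71 tested members, by family, in F1 (orange) and F3 (red), where bars are 1 standard error of the edgeR estimate from 3 against 3 libraries. F1 points lie around 0 with a median of 0.036, and F3 points lie mostly right of it with a median of 0.327, the ephrins being closer to 0 at 0.042.

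Among the receptors of semaphorins, all 9 tested plexins had F3 log2 fold changes above 0, with a median of 0.431. Of these, 5 were at an unadjusted p under 0.05 (Plxna1, Plxna2, Plxnb2, Plxnc1 and Plxnd1), and DESeq2 called Plxna1 and Plxnd1 higher. Plxnd1, the receptor of Sema3e and a gene of blood vessels, had 45.8, 71.4 and 66.9 CPM in F3 controls and 115, 88.6 and 148 CPM in F3 *thia*. All *thia* values lay above all controls, replicate 2 being the lowest of the 3, and the log2 fold change was 0.93 ± 0.23 (edgeR adjusted p = 0.110, DESeq2 adjusted p = 0.00104). Plxna1, a partner of the neuropilins, had 63.9, 85.4 and 72.1 CPM in F3 controls and 133, 91.6 and 155 CPM in F3 *thia*, again without overlap and with replicate 2 lowest. Its log2 fold change was 0.78 ± 0.20 (edgeR adjusted p = 0.117, DESeq2 adjusted p = 0.00314). Plxnb2, the highest plexin, had 263, 298 and 244 CPM in controls and 306, 319 and 341 CPM with *thia*, a log2 difference of 0.26 (edgeR adjusted p = 0.174). Plxna4 had a log2 fold change of 0.05 and its groups overlapped.

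Both neuropilins, which hold class 3 semaphorins at the cell surface, were called higher by DESeq2 in F3. Nrp2 had 18.6, 20.7 and 18.5 CPM in controls and 26.5, 25.9 and 24.6 CPM with *thia*. The 3 *thia* libraries were close to each other and above all controls, and the log2 fold change was 0.41 ± 0.086 (edgeR adjusted p = 0.105, DESeq2 adjusted p = 0.00679). Nrp1 had 37.6, 38.8 and 45.7 CPM in controls and 50.8, 49.7 and 66.1 CPM with *thia*, with a log2 fold change of 0.45 ± 0.14 (edgeR adjusted p = 0.148, DESeq2 adjusted p = 0.0382). The class 3 semaphorins themselves had a median of 0.092. DESeq2 called Sema3b and Sema3g higher, although the libraries of Sema3g overlapped, while Sema3f was at an unadjusted p under 0.05 only. Sema3e, the ligand of Plxnd1, had 7.91, 9.19 and 8.50 CPM in controls and 7.06, 6.85 and 5.50 CPM with *thia*. It was the 1 member with all *thia* libraries below all controls in F3, with a log2 fold change of -0.40 ± 0.15 (edgeR adjusted p = 0.189, DESeq2 adjusted p = 0.114). Sema3c, the most abundant of the class, had a log2 fold change of 0.09.

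Of the membrane-bound semaphorins of classes 4 to 7, 12 of 13 had F3 log2 fold changes above 0, with a median of 0.416, and DESeq2 called 8 of them higher (Sema4a, Sema4b, Sema4d, Sema4g, Sema5a, Sema5b, Sema6c and Sema6d). Among the called genes, Sema4g, Sema5b and Sema6c had *thia* and control libraries that overlapped. Sema5a, a transmembrane semaphorin with thrombospondin repeats, had 81.0, 77.6 and 76.1 CPM in F3 controls and 104, 92.9 and 106 CPM in F3 *thia*. The groups did not overlap, and the log2 fold change was 0.37 ± 0.077 (edgeR adjusted p = 0.105, DESeq2 adjusted p = 0.00691). With a trend on gene length removed, the log2 fold change of Sema5a was 0.16 (edgeR adjusted p = 0.34). Sema4b had 18.8, 24.9 and 22.4 CPM in controls and 29.8, 30.4 and 42.1 CPM with *thia*, with a log2 fold change of 0.63 ± 0.17 (edgeR adjusted p = 0.124, DESeq2 adjusted p = 0.00993). Sema4d, the ligand of Plxnb1, had 5.52, 5.12 and 3.85 CPM in controls and 9.40, 5.69 and 8.25 CPM with *thia*. Its groups were apart by little, since *thia* replicate 2 lay just above the highest control. Sema7a had 37.5, 56.3 and 38.9 CPM in controls and 71.0, 39.3 and 75.3 CPM with *thia*, so that *thia* replicate 2 lay among the controls. Its log2 fold change was 0.49 (edgeR adjusted p = 0.334) with that library and 0.73 (adjusted p = 0.0810) without it.

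Among the Eph receptors, 11 of 14 had F3 log2 fold changes above 0, with a median of 0.344, and DESeq2 called Epha3, Epha8, Ephb2, Ephb4 and Ephb6 higher. Epha3, which binds A ephrins and is known from mesenchymal and stromal cells, had 34.6, 35.6 and 33.5 CPM in controls and 49.0, 46.7 and 42.1 CPM with *thia*. It had the smallest p of all members in F3, its groups did not overlap, and the log2 fold change was 0.41 ± 0.079 (edgeR adjusted p = 0.105, DESeq2 adjusted p = 0.00436). Ephb6, a receptor without kinase activity, had 27.4, 32.6 and 26.9 CPM in controls and 38.6, 35.8 and 47.8 CPM with *thia*, with a log2 fold change of 0.49 ± 0.13 (edgeR adjusted p = 0.124, DESeq2 adjusted p = 0.0185). Epha8 had 6.45, 5.50 and 4.62 CPM in controls and 9.13, 10.4 and 7.32 CPM with *thia*. Its log2 fold change was 0.69 ± 0.19 (edgeR adjusted p = 0.126, DESeq2 adjusted p = 0.0121), and it was also above all controls in F1. Ephb4, a receptor of veins, had 106, 115 and 108 CPM in controls and 124, 139 and 157 CPM with *thia*, a log2 fold change of 0.35 ± 0.10 (edgeR adjusted p = 0.132, DESeq2 adjusted p = 0.0356). Epha1, Epha7 and Ephb3 had log2 fold changes below 0, from -0.14 to -0.04, and none of them was at an unadjusted p under 0.05.

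The 8 ephrins, the ligands of these receptors, had the lowest family median in F3, 0.042, which turned to -0.027 with a trend on GC content removed. With a trend on gene length removed it was 0.118 and no longer the lowest, since the class 3 semaphorins had 0.027 and the netrin receptors 0.071. DESeq2 called 1 of them higher, Efnb1, a ligand of the B receptors, which had 148, 172 and 144 CPM in controls and 175, 207 and 213 CPM with *thia* (log2 fold change 0.36 ± 0.11, edgeR adjusted p = 0.139, DESeq2 adjusted p = 0.0425). Efna5 was at an unadjusted p under 0.05 in edgeR with a log2 fold change of 0.42. Efnb2, the partner of Ephb4 in vessels, had 67.7, 78.5 and 60.4 CPM in controls and 58.1, 69.5 and 78.4 CPM with *thia*. Its groups overlapped, with a log2 fold change of -0.004 ± 0.14. Efna1, Efna2, Efna3, Efna4 and Efnb3 lay between -0.01 and 0.06.

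In the Slit and Robo system, DESeq2 called Slit1, Robo1 and Robo2 higher in F3. Robo1 had 14.9, 25.04 and 20.2 CPM in controls and 37.3, 26.1 and 46.1 CPM with *thia*. Replicate 2 of *thia* lay just above the highest control, and the log2 fold change was 0.86 ± 0.25 (edgeR adjusted p = 0.132, DESeq2 adjusted p = 0.00702). Robo2, the most abundant Robo, had 77.9, 103 and 78.7 CPM in controls and 127, 103 and 117 CPM with *thia*, with a log2 fold change of 0.42 ± 0.13 (edgeR adjusted p = 0.144, DESeq2 adjusted p = 0.0422). Its *thia* replicate 2, at 103.23 CPM, was barely above the highest control, at 103.04 CPM. When a trend on gene length was removed, its log2 fold change was 0.23 (edgeR adjusted p = 0.265). Of the ligands of the Robos, Slit2 had 83.2, 88.4 and 87.4 CPM in controls and 103, 94.0 and 102 CPM with *thia* (log2 fold change 0.21 ± 0.070, DESeq2 adjusted p = 0.120), and this difference turned to -0.04 when a trend on gene length was removed. The low Slit1 had 1.58, 2.16 and 1.33 CPM in controls and 3.61, 2.50 and 2.86 CPM with *thia* (log2 fold change 0.82 ± 0.25, edgeR adjusted p = 0.141, DESeq2 adjusted p = 0.0369). Slit1 was also above all controls in F1. Robo3, at no more than 0.352 CPM, had a log2 fold change of -0.12 ± 0.48.

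Among netrins and their receptors, 1 ligand and 1 receptor were called higher by DESeq2 in F3. Ntn3, a secreted netrin, had 69.1, 78.7 and 74.5 CPM in controls and 83.3, 112 and 102 CPM with *thia* (log2 fold change 0.42 ± 0.12, edgeR adjusted p = 0.132, DESeq2 adjusted p = 0.0278). Neo1 had 202, 232 and 201 CPM in controls and 250, 267 and 272 CPM with *thia*, again with no overlap (log2 fold change 0.31 ± 0.084, edgeR adjusted p = 0.123, DESeq2 adjusted p = 0.0280). Ntn1, the classical partner of Dcc, had a log2 fold change of -0.02 and Dcc one of 0.17. Ntn5 had 0.372, 0.270 and 0.425 CPM in controls and 0.386, 0.690 and 0.419 CPM with *thia*. These ranges overlapped, the log2 fold change was 0.46 ± 0.35 (edgeR adjusted p = 0.496), and DESeq2 gave no adjusted p at this level. Unc5a, Unc5b, Unc5c and Unc5d had log2 fold changes of 0.40, 0.17, -0.07 and -0.37, and none was at an unadjusted p under 0.05.

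**Figure D3:**
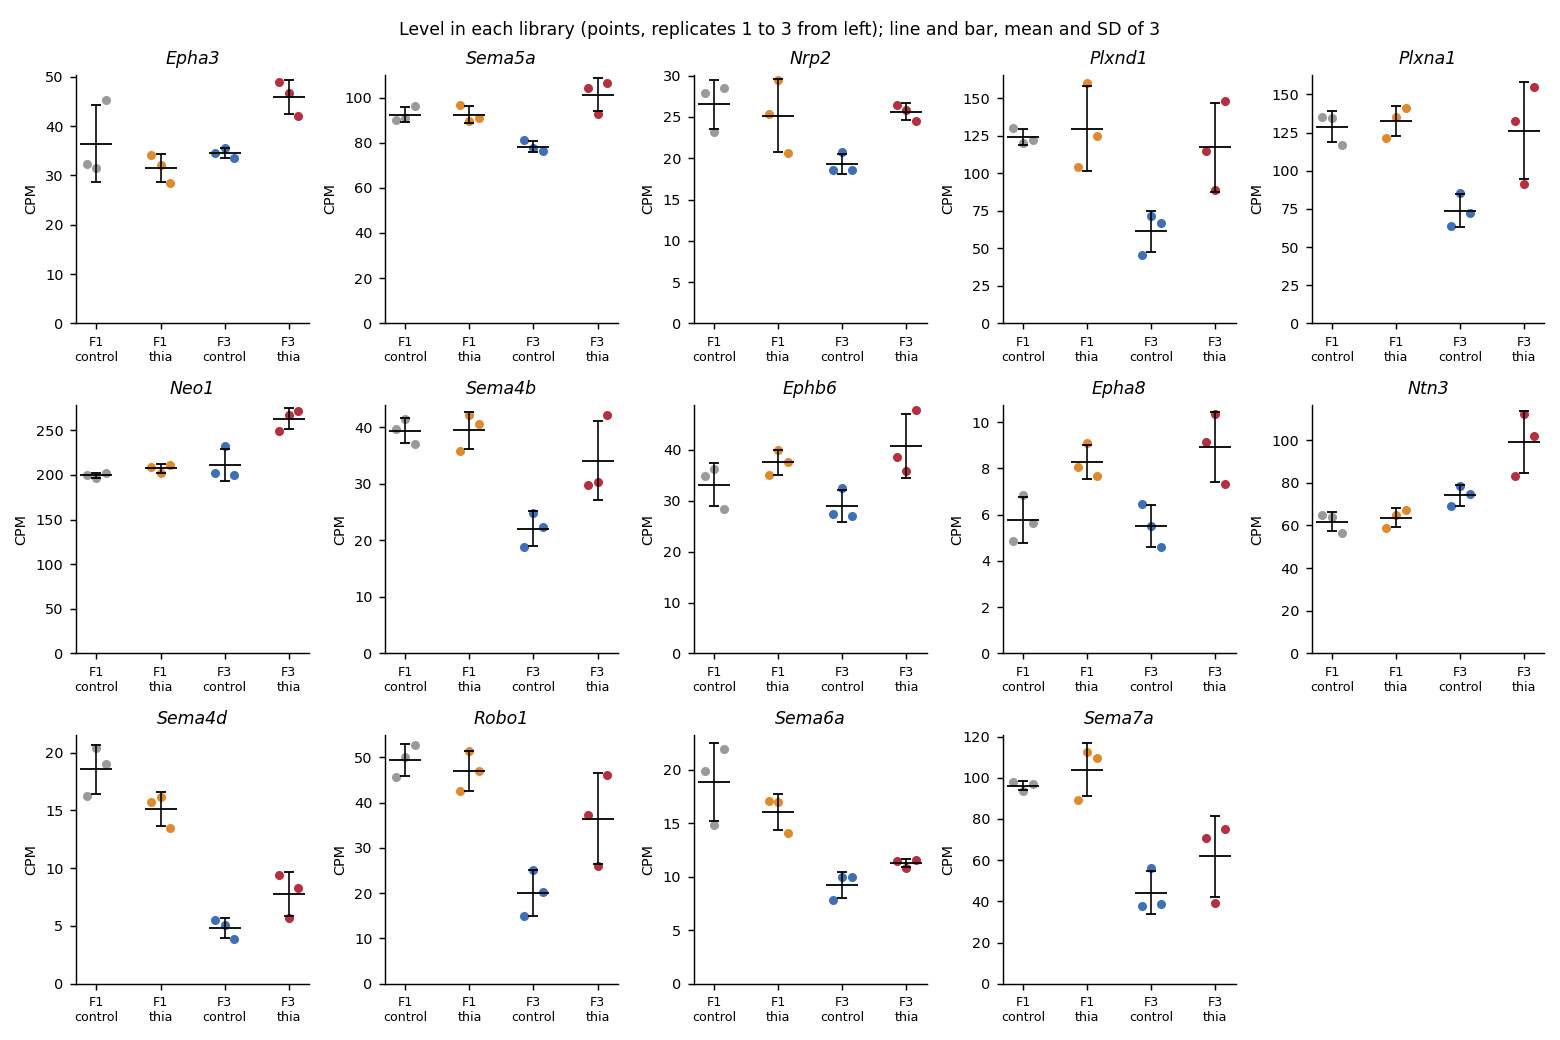
CPM in each of the 12 libraries for the 10 members with the smallest p in F3 and 4 more from the other comparisons, with the mean and SD of 3 libraries in each group and axes that start at 0. In F3 the *thia* points of the first 10 genes lie above all F3 control points, and for Plxnd1, Plxna1 and Robo1 the F3 *thia* point of replicate 2 is the lowest of its group.

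Gene length moved with the F3 difference over all genes. The median log2 fold change of all genes went from -0.103 in the shortest of 4 equal bins of exonic length through -0.032 and 0.023 to 0.104 in the longest, and the members are long, with a median of 6855 exonic bases where that of genes tested was 4025. In the same bins the members had medians of 0.042 (n = 4), 0.281 (n = 9), 0.410 (n = 19) and 0.291 (n = 39). In the longest bin, 21.5% of genes and 18 of 39 members were higher at an unadjusted p under 0.05, and in the next bin 13.4% of genes and 12 of 19 members. With the trend on length removed, the median of the members was 0.227 and 25 members were at an unadjusted p under 0.05, 22 of them higher. With the trend on GC content removed, the median was 0.263. In the bins of F1 the direction was the opposite, with all-gene medians from 0.072 in the shortest to -0.054 in the longest.

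**Figure D4:**
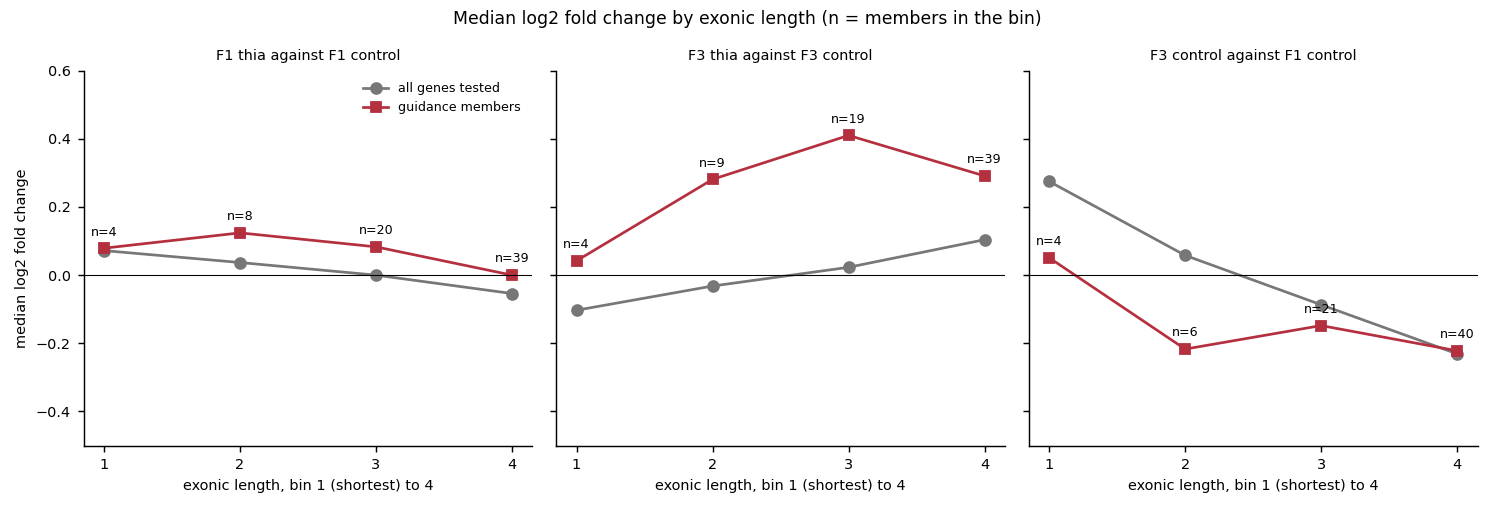
Median log2 fold change in 4 equal bins of exonic length for all genes tested (grey) and for the guidance members (red, n beside each point), in 3 comparisons. In F3 *thia* against control the members lie above all genes in each bin, and in F3 control against F1 control both lines are at about the same value in the longest bin, -0.222 and -0.231.

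Markers of several cell types also moved with *thia* in F3. The sum of the 6 endothelial markers was 160.5 to 187.3 CPM in F3 controls and 241 to 287.6 CPM in F3 *thia*, and 6 of 6 were higher at an unadjusted p under 0.05 (median log2 fold change 0.459). The 6 fetal Leydig cell markers summed to 2190 to 3619 CPM in controls and 3840 to 6968 CPM with *thia*, with 6 of 6 above 0, 3 of them at an unadjusted p under 0.05, and a median of 0.925. The 8 germ cell markers summed to 601.3 to 933.4 CPM in controls and 394.5 to 746.9 CPM with *thia*, with 3 lower at an unadjusted p under 0.05 (median -0.482). The 6 interstitial progenitor markers summed to 1119 to 1284 CPM in controls and 1266 to 1429 CPM with *thia*, with 4 higher at an unadjusted p under 0.05 (median 0.311). The 4 adrenal markers summed to 32.37 to 48.95 CPM in controls and 51.74 to 111.5 CPM with *thia*, with 1 higher at an unadjusted p under 0.05 (median 0.589). The 7 Sertoli cell markers summed to 749.5 to 998.8 and 747.9 to 1252 CPM, with 2 higher. Of the members that DESeq2 called higher in F3, Plxnd1, Ephb4, Nrp1 and Sema3g are known from endothelium. They were picked among the called members, and the members known from endothelium were not counted as a full list. Efnb2, the partner of Ephb4 in vessels, was not higher, with a log2 fold change of -0.004 and groups that overlapped. The part of cell composition in these values was not tested. In F1 the endothelial sums overlapped, at 231.1 to 284.3 CPM in controls and 254.5 to 300.8 CPM with *thia*. The neuron and Schwann cell sums lay apart in F1, at 42.95 to 48.57 and 51.8 to 55.67 CPM. So did those of mesonephric duct and epithelium (67.59 to 81.88 and 82.45 to 116.4 CPM) and of macrophages (40.07 to 48.58 and 50.18 to 60.37 CPM). Of these markers, 0, 3 and 2 were higher in F1 at an unadjusted p under 0.05. In F3 the sums of these other lists overlapped, and the neuron and Schwann cell median was -0.043. The germ cell sums in F1 were 1036 to 1393 CPM in controls and 871.3 to 1053 CPM with *thia*, with 5 of 8 lower at an unadjusted p under 0.05 (median -0.422). The adrenal sums in F1 were 42.21 to 57.64 CPM in controls and 25.47 to 37.22 CPM with *thia*, with 2 of 4 lower and 1 higher.

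**Figure D5:**
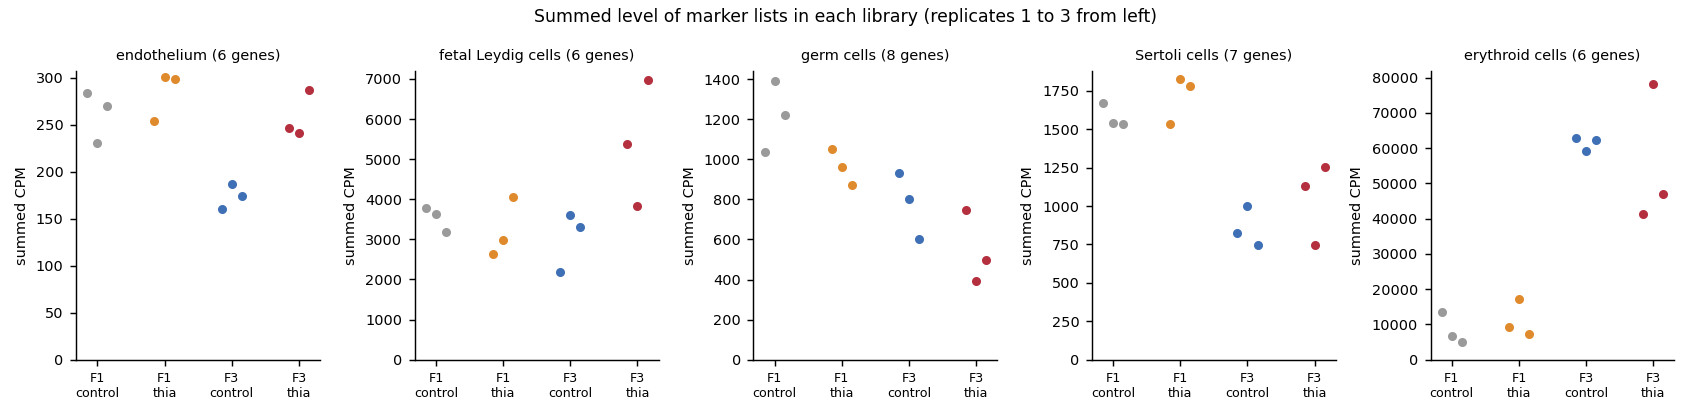
Summed CPM of 5 marker lists in each of the 12 libraries, with axes that start at 0. The F3 *thia* libraries lie above all F3 controls for endothelium and fetal Leydig cells, and the erythroid sum is higher in every F3 library than in every F1 library.

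The difference between the F3 and the F1 effect was tested in 1 fit of all 12 libraries. By edgeR 0 of 71 members were called higher and 0 lower at an adjusted p under 0.1, where 0% and 0.0051% of 19626 genes were. At an unadjusted p under 0.05 there were 17 members with a higher effect in F3 (23.9%, all genes 7.93%) and 0 with a lower one (all genes 6.1%). DESeq2 called 7 of the 62 members to which it gave an adjusted p higher (11.3%, all genes 2.85%) and 0 lower (all genes 1.89%), namely Sema4d, Sema5a, Robo1, Epha3, Plxna1, Sema4b and Plxnd1. The smallest p was that of Sema4d, with a log2 difference of 0.99 ± 0.26 (edgeR adjusted p = 0.248, DESeq2 adjusted p = 0.0244), followed by Sema5a (0.37), Robo1 (0.94), Epha3 (0.61) and Plxna1 (0.74). With the trend on length removed, 9 members were at an unadjusted p under 0.05, 8 of them higher.

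Control levels themselves differed between the generations. In F3 controls, 7 members were higher than in F1 controls (9.86%, all genes 19.9%) and 25 were lower (35.2%, all genes 22.4%), by edgeR at an adjusted p under 0.1. Generation and the time of breeding and sequencing cannot be told apart here, and F3 libraries had the higher erythroid sums given above. Of the 13 class 4 to 7 semaphorins, 9 were lower and none higher, and 5 of 9 plexins and 2 of 3 Robos were lower. Sema4d had 16.24, 20.4 and 19.0 CPM in F1 controls and 5.52, 5.12 and 3.85 CPM in F3 controls, a log2 difference of -1.94 ± 0.19 (adjusted p = 0.000101). Robo1 had 45.7, 50.2 and 52.7 CPM in F1 controls and 14.9, 25.04 and 20.2 CPM in F3 controls (-1.30 ± 0.20, adjusted p = 0.000716). Sema6a (-1.03), Sema4b (-0.84), Sema7a (-1.12) with its receptor Plxnc1 (-0.78), Plxnd1 (-1.02), Plxna1 (-0.805), Robo2 (-0.67), Sema3g (-0.89), Sema5b (-0.81), Ntn4 (-1.03), Efna5 (-0.59) and Nrp2 (-0.46) were also lower. So were Sema6c (-0.545), Sema6d (-0.54), Epha2 (-0.49) and Sema3f (-0.41). The higher members included the secreted Sema3d, with 73.7, 53.0 and 72.3 CPM in F1 controls and 116, 128 and 121 CPM in F3 controls (0.88 ± 0.20, adjusted p = 0.00671), Sema3e (0.90), Sema3a (0.50) and Efnb3 (0.30). The split turned more even under 2 alternatives, at 15 higher and 18 lower with the trend on length removed and 12 higher and 18 lower with upper quartile scaling. It was 7 higher and 24 lower with the size factors of DESeq2, and 8 higher and 26 lower with the trend on GC content removed. Of the 32 calls, 25 were also made with the trend on length removed, among them Sema5a in the other direction (-0.24 before and 0.195 after). Over all genes the median went from 0.275 in the shortest bin of length to -0.231 in the longest, where the 40 members had -0.222.

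The F3 controls enter both this comparison and that of F3 *thia*, so the 4 groups are given side by side. Plxnd1 had means of 124 ± 5.46 CPM (SD, n = 3) in F1 controls, 129.7 ± 28.2 in F1 *thia*, 61.3 ± 13.7 in F3 controls and 117 ± 29.9 in F3 *thia*. Plxna1 had 129 ± 10.3, 133 ± 9.94, 73.8 ± 10.9 and 126 ± 32.0 CPM in the same order. Robo1 had 49.5 ± 3.55, 47.0 ± 4.42, 20.1 ± 5.07 and 36.5 ± 10.03 CPM, and Sema4b had 39.4 ± 2.22, 39.5 ± 3.31, 22.1 ± 3.09 and 34.1 ± 6.96 CPM. In these 4 genes the F3 controls were the low group and the other 3 groups lay closer together. They were picked among members with small p in comparisons that include the F3 controls, so this order partly follows from the choice. How many members or genes at large had it was not counted. Epha3 and Neo1 did not have this order, with Neo1 at 199.9 ± 2.83 CPM in F1 controls, 207 ± 4.71 in F1 *thia*, 211 ± 17.9 in F3 controls and 263 ± 11.7 in F3 *thia*.

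The genes that carry guidance signals inside the cell, together with other guidance cues that are not members, were counted on a list of 58 genes, all of which were tested. In F1, 0 were called by edgeR, 5 were higher and 0 lower at an unadjusted p under 0.05 (all genes 4.63% and 4.13%), DESeq2 called 1 higher (all genes 0.488%), and the median log2 fold change was 0.010. In F3, 0 were called by edgeR, 17 were higher and 5 lower at an unadjusted p under 0.05 (all genes 11% and 10%), and DESeq2 called 13 higher and 2 lower (all genes 9.17% and 5.7%). Their F3 median was 0.161, which became 0.054 with the trend on length removed. The genes named from this list were chosen after their values were seen. Limk1, a kinase that acts on the actin regulator cofilin, had the smallest p, with 55.5 CPM on average in F3 controls and 74.1 CPM in F3 *thia* (log2 fold change 0.41 ± 0.079, edgeR adjusted p = 0.105, DESeq2 adjusted p = 0.00264). DESeq2 called the adaptor gene Nck1 lower, with 67.4 and 53.1 CPM (-0.345 ± 0.078, edgeR adjusted p = 0.105, DESeq2 adjusted p = 0.0285), and also Rnd1, a small GTPase that binds plexins, with 4.83 and 3.38 CPM (-0.52 ± 0.15, edgeR adjusted p = 0.139, DESeq2 adjusted p = 0.0522). The Slit-Robo GTPase activating genes Srgap1, Srgap2 and Srgap3 had F3 log2 fold changes of 0.44, 0.20 and 0.55 (DESeq2 adjusted p = 0.0405, 0.231 and 0.0220). Rgma, a repulsive ligand of Neo1, had 33.8 CPM on average in F3 controls and 51.4 CPM in F3 *thia* (log2 fold change 0.61 ± 0.14, edgeR adjusted p = 0.105, DESeq2 adjusted p = 0.00340). Robo4, the Robo of endothelium, had 7.28 and 11.6 CPM (0.68 ± 0.18, edgeR adjusted p = 0.126, DESeq2 adjusted p = 0.0107). Between the control groups, 5 of the 58 were higher and 33 lower in F3 by edgeR (all genes 19.9% and 22.4%).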

How the data were processed

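RNA of 12 pools of E15.5 testes (3 embryos each, 3 libraries in each of 4 groups) was sequenced by the authors as directional paired-end libraries of 100 bp reads, mapped to mm10 with HISAT2 2.1.0 and counted on the reverse strand with featureCounts on refGene models (bcl2fastq 2.20.0.422 and DESeq2 2.11.40.7 are also named in the submitters' processing notes). The deposited values are raw counts per gene symbol, not normalized, and whether pairs or single reads were counted is not given in the sources used here. Samples were grouped by the sample type in the labels. 1 CPM stood for 27 to 66.8 counts of a library, so that members under 1 CPM rest on few counts.

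Counts of all genes were tested with edgeR 4.0.16 (quasi-likelihood test, R 4.3.3, limma 3.58.1) after filterByExpr at a minimum count of 10 and TMM scaling, within each generation, and in 1 fit of 12 libraries for the difference between generations and for the controls. Benjamini-Hochberg adjustment ran over all genes, with thresholds of 0.15 in F1 and 0.1 elsewhere. SE is the log2 fold change divided by the square root of F. DESeq2 1.42.0 with its own filter was the alternative, beside other scalings, other filters, length and GC trends removed by loess, a replicate block and each library left out. More were added after seeing the data, the F1 threshold in F3, a block of replicate numbers over both generations for the controls, and counts at an unadjusted p under 0.05 with the medians over all members. Steps were tested on simulated data. Exonic lengths came from GENCODE M21 and not from the refGene models used in counting; all 72 members matched.

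The members and lists were chosen with earlier results of these data known. Named are the 10 members with the smallest p in F1 and in F3, the 5 with the smallest p in the other 2 comparisons, the 2 highest per kb in each family, Ephb4, Ntn5, up to 20 called members a comparison, and known ligands or receptors of these. Same-numbered libraries of control and *thia* had correlations of deviations of -0.031, -0.034 and 0.021 in F1 and 0.229, -0.423 and -0.271 in F3, so the numbers were not used as pairs.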

Additional observations from a re-analysis of the deposited data

Results flagged for a closer look

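Sema4d was the 1 member whose *thia* libraries moved in opposite directions in the 2 generations, all 3 below all controls in F1 and all 3 above all controls in F3. Over all genes tested, 8.45% lay below all controls in F1 and 13.4% lay above all controls in F3. The share of all genes with both was not counted, so this order is not given as a trait of the members. In F1 it had 16.24, 20.4 and 19.0 CPM in controls and 15.8, 16.16 and 13.5 CPM with *thia*, and in F3 5.52, 5.12 and 3.85 CPM and 9.40, 5.69 and 8.25 CPM. The gap between the groups was small in both, being set by F1 *thia* replicate 2 and F3 *thia* replicate 2. The difference between the effects was 0.99 ± 0.26 on the log2 scale, with an edgeR quasi-likelihood adjusted p of 0.248, which did not pass the threshold, and a DESeq2 adjusted p of 0.0244, which did.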

How the results depend on the processing

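In F1 the number of members called went from 0 to 1 with DESeq2 and to 1 without a filter on low counts. In F3 it went from 0 to 25 with DESeq2 (all genes 14.9%), 2 with upper quartile scaling (2.8%), 5 without a filter (1.85%), 3 with at least 10 counts in every library (1.94%), 1 with the GC trend removed (0.37%), 22 with all 12 libraries in one fit (9.86%) and 18 at the threshold of 0.15 (9.85%, added after seeing the data), and it was 0 to 15 as each library was left out, 15 being the number without F3 *thia* replicate 2 (6.82%). Members at an unadjusted p under 0.05 in F3, 33 in all, were 18 to 42 as each library was left out, with 19 without F3 control replicate 1 and 18 without F3 *thia* replicate 3. In the difference between generations DESeq2 gave 7 where edgeR gave 0. The cause of these shifts was not tested. The median over the members in F3 was 0.227 to 0.345 over all alternatives run. The log2 fold change of Slit2 in F3, 0.21, turned to -0.038 with the length trend removed and to -0.037 with the replicate block as well, while no other member at an unadjusted p under 0.05 in F3 changed sign. Others became smaller with the length trend removed, among them Sema5a (0.37 to 0.16), Ephb2 (0.335 to 0.186) and Robo2 (0.42 to 0.23). Ephb6 went from 0.49 to 0.51. The median of the ephrins in F3, 0.042, turned to -0.027 with the GC trend removed and to -0.007 without F3 control replicate 3. Of the 32 calls between the control groups, 7 were lost and 8 others gained with the length trend removed, where Sema5a turned from -0.24 to 0.195, and 7 were lost and 5 others gained with upper quartile scaling. As each library was left out, 1 to 10 of them were lost.

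The replicate numbers pair no libraries by the labels, and a fit with the number as a block called 0 members in F1, 0 in F3 and 0 in the difference, with 28 members at an unadjusted p under 0.05 in F3. For the control groups the number was set as a block over both generations (added after seeing the data), and this replicate block called 29 members, all of them among the 32 called without it.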
